A study of Homo sapiens with 4 samples.

Results

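The genes described here are EGFR, MET and their relatives and ligands in MHCC97H cells, a human hepatocellular carcinoma line with high metastatic potential. They are 6 receptor tyrosine kinase genes (EGFR, ERBB2, ERBB3, MET, FGFR4 and AXL) and 4 genes for ligands of EGFR (AREG, EREG, HBEGF and TGFA). They were chosen by name, with earlier results of these data known. All 10 were present among the 61541 gene IDs of the count table, and all 10 were among the 16863 genes that passed the filter on low counts. The study sequenced polyadenylated RNA from 2 libraries of cells carrying a control shRNA (shCon, genotype labelled control) and 2 libraries of cells carrying an shRNA against UBXN1 (shUBXN1, genotype labelled UBXN1 knockdown). UBXN1 is a ubiquitin-binding cofactor of the p97 ATPase. The study compared the groups to find genes regulated by UBXN1. Its methods describe lentiviral pLKO.1 shRNA vectors and name the control of this comparison shRFP, whereas the labels write shCon. Which of the designed shRNAs the sequenced cells carried was not given in the sources used here, so an effect of one hairpin outside UBXN1 and an effect of UBXN1 cannot be told apart. Nothing says whether the libraries of a group came from separate cultures, so the p-values measure the spread between these libraries, which may be technical.

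The libraries held 23373700 to 27380508 counts. UBXN1 itself gave 67.1 and 77.3 CPM (counts scaled to a common library size with TMM factors) in shCon and 16.8 and 18.5 CPM in shUBXN1, so 24.5% of the control level remained (log2 fold change -2.03 ± 0.0963 SE, adjusted p = 9.98e-10, edgeR quasi-likelihood test). Mitochondrially encoded genes took 5.28% and 5.59% of the counts in shCon and 7.43% and 8.27% in shUBXN1, and the part of this difference in the results below was not tested. Of 12 hepatocyte and hepatocellular carcinoma markers, all of which passed the filter, 2 rose and 7 fell at an adjusted p under 0.05. Of all genes tested, 28.0% rose and 28.2% fell. On the log2 scale, ALB (-1.97), TF (-1.96), FGB (-4.02, and -4.66 without the first knockdown library) and HNF4A (-0.30) were among those that fell. SERPINA1 (0.40) and KRT18 (0.31) rose, and AFP (-0.29), APOA1 (-0.56) and EPCAM (0.71) did not pass. Without the abundant keratins KRT8 and KRT18, the summed marker level was 211 to 221 CPM in shCon and 99.3 to 101 CPM in shUBXN1. Of 12 markers of blood, endothelial and stromal cells, 8 did not exceed 20 counts in any library, CD3E had 0 counts throughout, and 5 passed the filter. Of those 5, 2 rose and 2 fell at an adjusted p under 0.05, to be read against the same shares of all genes. The summed level of these 12 markers was 118 and 124 CPM in shCon and 120 and 117 CPM in shUBXN1. It came mostly from CD68 (82.4 and 88.3 against 72.9 and 70.5 CPM) and PECAM1 (33.4 and 33.2 against 43.0 and 41.8 CPM). COL1A1, a fibroblast collagen gene, rose from 10 and 4 counts to 58 and 59 (log2 fold change 3.11, adjusted p = 5.83e-05, and 3.80 without the first control). COL3A1, the other collagen gene of this list, did not pass the filter. It had 7 and 15 counts in shCon and 4 and 3 in shUBXN1. The part of these markers in the results was not tested. In bulk RNA, fewer cells expressing a gene and less RNA of that gene per cell cannot be told apart.

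EGFR, ERBB2 and ERBB3 are receptors of one family, which signal as pairs. EGFR binds the ligands of all 4 ligand genes here. ERBB2 binds no known ligand, and ERBB3, which binds neuregulins, has little kinase activity of its own, so both act mainly through their partners. The ligands are made as membrane-anchored precursors that proteases such as ADAM17 release. MET binds hepatocyte growth factor, FGFR4 is the main fibroblast growth factor receptor of hepatocytes and takes part in the control of bile acid synthesis, and AXL binds GAS6. All of them feed the RAS-ERK and PI3K-AKT pathways, and MET, EGFR, FGFR4 and AXL have each been studied as drivers or drug targets in liver cancer.

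EREG and AREG, which lie side by side, gave quite different values. These genes for epiregulin and amphiregulin are transcribed in the same direction on chromosome 4, at chr4:74365145-74388749 and chr4:74445136-74455005 (GRCh38, plus strand), with 56387 bases between them. Their RefSeq promoter windows (GRCh38.p14, plus strand, 250 bases before the start of the gene and 50 after) are printed because EREG fell in shUBXN1 and AREG did not pass the test. Capitals mark the motifs that were searched for and found. The EREG window is chr4:74364895-74365194, and the AREG window is chr4:74444886-74445185.
EREG: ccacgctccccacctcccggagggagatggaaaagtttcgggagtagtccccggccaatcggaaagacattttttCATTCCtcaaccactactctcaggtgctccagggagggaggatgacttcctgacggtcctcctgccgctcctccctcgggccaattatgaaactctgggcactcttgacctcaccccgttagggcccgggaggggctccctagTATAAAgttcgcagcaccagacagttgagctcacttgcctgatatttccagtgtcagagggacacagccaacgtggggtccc
AREG: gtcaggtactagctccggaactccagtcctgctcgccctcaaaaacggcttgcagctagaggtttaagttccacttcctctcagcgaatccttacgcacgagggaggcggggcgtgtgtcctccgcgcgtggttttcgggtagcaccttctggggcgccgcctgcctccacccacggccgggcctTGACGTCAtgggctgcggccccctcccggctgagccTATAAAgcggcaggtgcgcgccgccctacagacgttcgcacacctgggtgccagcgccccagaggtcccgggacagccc
Both windows held the TATA box motif TATAAA, 32 bases before the start in EREG and 29 bases before it in AREG. AREG also held the full cyclic AMP response element TGACGTCA, a palindrome, 65 bases before its start. EREG held CATTCC, the reverse complement of the TEAD motif GGAATG, 175 bases before its start. The motifs were searched on both strands in 35116 promoter windows, of which 1.8% held TGACGTCA, 11.5% TATAAA and 14.0% GGAATG. Of the 10 genes, GGAATG was also in windows of AXL, EGFR and FGFR4, and TATAAA also in one of EGFR, whereas TGACGTCA was in that of AREG alone. The motif TGANTCA of AP-1 was in 7.7% of windows and in those of EGFR and ERBB2, and the motif GCGNGGGCG of EGR factors was in 9.4% and in none of the 13 windows listed for 9 of the 10 genes. ERBB3 had no window in the table used. A match is a description of these letters and not of binding.

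Of the 10 genes, 2 were higher (ERBB2 and AXL) and 2 were lower (EREG and FGFR4) in shUBXN1 by at least 2-fold with an unadjusted p under 0.05, the thresholds that the study used. By that rule 11.8% of all genes tested were higher and 6.09% were lower. At a Benjamini-Hochberg adjusted p under 0.05 over all genes tested, 2 of the 10 rose and 4 fell (EREG, FGFR4, ERBB3 and TGFA), where 28.0% of all genes rose and 28.2% fell. EGFR, MET, AREG and HBEGF did not pass. At the adjusted p the share of these genes that passed was close to that of genes at large. By the 2-fold rule it was above it, on 4 genes. The median log2 fold change was -0.06 for the 10 genes and 0.02 for all genes tested. For 9 of the 10 genes, all but AREG, the CPM of the groups did not overlap, which with 2 libraries a group held for 78.0% of genes tested.

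**Figure D1:**
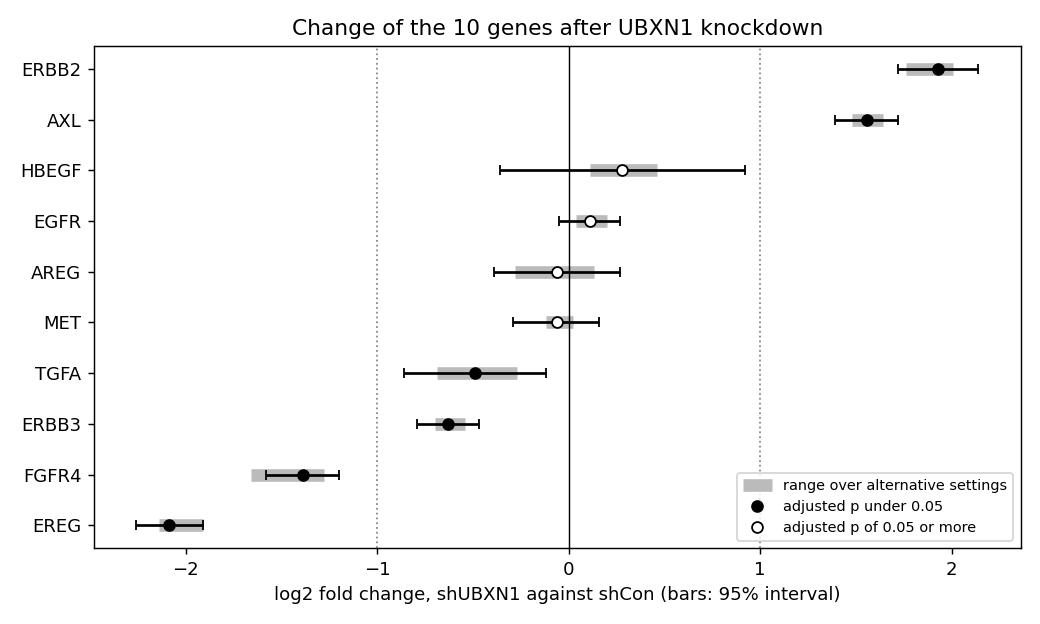
Log2 fold change of each gene in shUBXN1 against shCon (x axis), with its 95% interval as a black bar and the range over 16 alternative settings as a grey band. Filled points mark an adjusted p under 0.05 and dotted lines mark a 2-fold change. ERBB2 and AXL lie beyond the line on the right, and FGFR4 and EREG beyond that on the left.

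Among the 3 receptors of the EGFR family, ERBB2 rose, ERBB3 fell and EGFR did not pass the test. ERBB2 (chr17:39687914-39730426, plus strand) gave 10.9 and 11.5 CPM in shCon and 41.3 and 44.2 CPM in shUBXN1. Both knockdown libraries thus stood well above both controls, a 3.81-fold rise (log2 fold change 1.93 ± 0.0992 SE, adjusted p = 2.08e-09, edgeR). ERBB3 (chr12:56076799-56103505, plus strand) gave 93.4 and 86.7 CPM in shCon and 59.6 and 56.8 CPM in shUBXN1. Its knockdown libraries kept 64.6% of the control level (log2 fold change -0.63 ± 0.0766 SE, adjusted p = 7.85e-06, edgeR), a fall that passed the adjusted test but not the 2-fold threshold. EGFR (chr7:55019017-55211628, plus strand) gave 200 and 184 CPM in shCon and 210 and 205 CPM in shUBXN1. The groups lay side by side without overlap, and the 95% interval of the ratio of shUBXN1 to shCon ran from 0.966 to 1.21 (log2 fold change 0.11 ± 0.0750 SE, adjusted p = 0.227, edgeR). Scaled by library totals alone, EGFR passed at 0.20 (adjusted p = 0.0324).

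The opposite movements of ERBB2 and ERBB3 changed the makeup of the receptor transcripts. In TPM, a scale that divides counts by transcript length, ERBB2 stood at 0.144 and 0.164 of the level of ERBB3 in shCon and at 0.855 and 0.959 of it in shUBXN1. Relative to EGFR, ERBB2 went from 0.119 and 0.136 to 0.428 and 0.469. ERBB4, the remaining receptor of the family, had 0 counts in all 4 libraries, which allows a level of up to 0.113 to 0.128 CPM per library (3 counts, counting error only).

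The genes beside ERBB2 that passed the filter did not rise. Exons of ERBB2 overlap those of PGAP3 over 144 bases and those of MIEN1 over 571 bases (1.4% and 5.5% of the exon bases of ERBB2), in both cases on the opposite strand, and whether the counting used strand was not given in the sources used here. PGAP3, which remodels lipid anchors, gave 14.6 and 16.3 CPM in shCon and 13.9 and 13.4 CPM in shUBXN1 and did not pass (log2 fold change -0.18, adjusted p = 0.218). MIEN1 gave 31.2 and 31.8 CPM in shCon and 23.6 and 24.8 CPM in shUBXN1, a fall (-0.38, adjusted p = 0.00260). The part of reads from the shared bases in the value of ERBB2 was not tested. GRB7, an adaptor that binds ERBB2 and whose gene begins 7501 bases beyond it, fell by 1.26 on the log2 scale (adjusted p = 6.18e-04).

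MET was by far the most abundant of the 10 transcripts and did not pass the test. MET (chr7:116672196-116798377, plus strand) encodes the receptor of hepatocyte growth factor and gave 11447 and 10824 CPM in shCon and 10601 and 10756 CPM in shUBXN1. It took 1.05% to 1.12% of all counts in each library and ranked 2 by CPM and 29 by TPM among the genes tested, by mean over the 4 libraries. The 95% interval of its log2 fold change ran from -0.29 to 0.16 (-0.06 ± 0.105 SE, adjusted p = 0.650, edgeR), so a 2-fold change in either direction lay outside it. In TPM, MET exceeded EGFR 82.4-fold and 84.7-fold in shCon and 72.7-fold and 75.6-fold in shUBXN1. With the length of all annotated exons in place of the deposited length, MET exceeded EGFR 126-fold and 130-fold in shCon, against 111-fold and 116-fold in shUBXN1. Its ligand HGF, by contrast, had 3 and 3 counts in shCon and 2 and 3 in shUBXN1, at or under the floor of 3 counts.

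FGFR4 and AXL moved in opposite directions. FGFR4 (chr5:177086905-177098144, plus strand) gave 56.6 and 61.6 CPM in shCon and 21.7 and 23.3 CPM in shUBXN1. The knockdown libraries kept 38.1% of the control level, a 2.63-fold fall (log2 fold change -1.39 ± 0.0877 SE, adjusted p = 1.31e-08, edgeR). AXL (chr19:41219223-41261766, plus strand), a receptor linked to invasive and mesenchymal states of tumour cells, gave 33.5 and 34.5 CPM in shCon and 99.7 and 100 CPM in shUBXN1. All libraries of a group were close to each other, and the rise was 2.94-fold (log2 fold change 1.56 ± 0.0758 SE, adjusted p = 1.27e-09, edgeR). In TPM, FGFR4 stood at 2.58 and 2.72 times the level of AXL in shCon and at 0.331 and 0.356 times in shUBXN1, so their order turned.

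Among the ligands, EREG fell most. EREG gave 84.4 and 82.9 CPM in shCon and 19.1 and 20.2 CPM in shUBXN1, from 2249, 1948, 473 and 474 counts. Libraries of a group were nearly equal, and the knockdown libraries kept 23.5% of the control level, a 4.25-fold fall (log2 fold change -2.09 ± 0.0817 SE, adjusted p = 1.81e-10, edgeR). Of all genes tested, EREG lay at percentile 1.06 of the log2 fold changes. AREG gave 11.0 and 12.9 CPM in shCon and 9.90 and 13.1 CPM in shUBXN1. The knockdown libraries enclosed both controls, and the 95% interval of its log2 fold change ran from -0.39 to 0.27 (-0.06 ± 0.154 SE, adjusted p = 0.779, edgeR). The difference between the responses of EREG and AREG was not tested, but these intervals lie far apart, since that of EREG ran from -2.26 to -1.91.

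TGFA was somewhat lower after knockdown, and HBEGF had few counts. TGFA (chr2:70447284-70554193, minus strand), for transforming growth factor alpha, gave 10.5 and 7.96 CPM in shCon and 6.67 and 6.54 CPM in shUBXN1. Both knockdown libraries were below both controls (log2 fold change -0.49 ± 0.173 SE, 1.40-fold lower, adjusted p = 0.0267, edgeR), but the controls differed from each other by nearly as much, and without the first control library the value was -0.27 (adjusted p = 0.365). HBEGF (chr5:140332843-140346603, minus strand), for heparin-binding EGF-like growth factor, gave 51 and 58 counts in shCon and 69 and 59 in shUBXN1, or 1.91, 2.47, 2.79 and 2.52 CPM. At this depth its 95% interval was wide, from -0.36 to 0.92 (log2 fold change 0.28 ± 0.300 SE, adjusted p = 0.450, edgeR). BTC, for betacellulin, another ligand of EGFR and the next gene of the cluster that passed the filter after AREG, fell by 1.19 on the log2 scale (adjusted p = 0.00154), whereas EPGN, before EREG, had at most 1 count in any library.

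The ligand transcripts together summed to 84.0 and 80.2 TPM in shCon and 48.7 and 51.8 TPM in shUBXN1. EREG made up 44.3% of that sum in each control library and 18.4% and 17.0% in the knockdown libraries. These levels rest on the single length deposited for each gene, and with the length of all annotated exons the share of EREG was 60.9% and 58.5% in shCon and 28.7% and 25.9% in shUBXN1. The ratio of EREG to AREG in TPM was 1.59 and 1.33 in shCon and 0.400 and 0.321 in shUBXN1, so AREG was the more abundant transcript only after knockdown.

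The order of levels shows how the receptor and ligand makeup differed. In shCon, mean TPM ran from MET (3249) through EGFR (38.9), FGFR4 (38.3), EREG (36.3), ERBB3 (32.2), AREG (25.0), TGFA (18.8), AXL (14.4) and ERBB2 (4.94) to HBEGF (1.86). EGFR and FGFR4 overlapped between libraries, while the other neighbours in that order did not. In shUBXN1 the order was MET (3245), AXL (44.2), EGFR (43.8), AREG (25.0), ERBB3 (21.7), ERBB2 (19.6), FGFR4 (15.2), TGFA (14.0), EREG (8.90) and HBEGF (2.36), with AXL overlapping EGFR and AREG overlapping ERBB3. AXL thus moved from rank 8 to rank 2, FGFR4 from 3 to 7 and EREG from 4 to 9, with no test between genes. The order rests on one deposited length per gene, which equals a single transcript. For TGFA that length was 985 bases against 4917 bases of annotated exons. With the length of all exons, EREG ranked 2, FGFR4 3, EGFR 4 and AXL 7 in shCon. In shUBXN1, AXL then ranked 2, FGFR4 6, ERBB2 7, EREG 8 and TGFA 9.

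**Figure D2:**
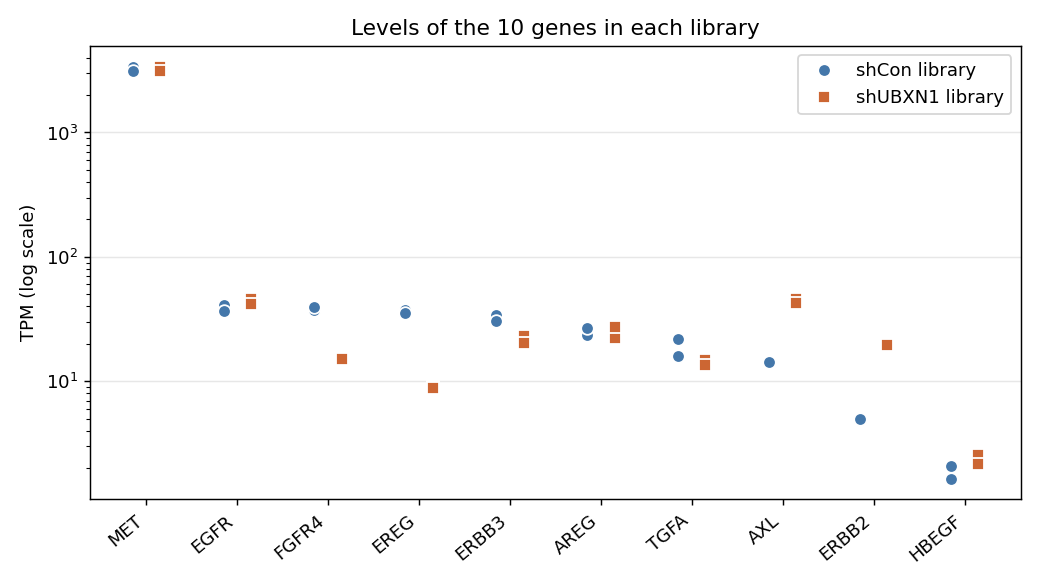
TPM of the 10 genes (y axis, log scale) in each library, ordered by mean in shCon. Each circle is a shCon library and each square an shUBXN1 library. MET lies at 3109 to 3388 TPM in all libraries, and the groups separate most for EREG, ERBB2, AXL and FGFR4.

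The members' partners in the same pathways were described from 8 lists with 112 genes, of which 98 passed the filter. Of these, 35 rose and 31 fell at an adjusted p under 0.05, with a median log2 fold change of -0.03, where 28.0% of all genes tested rose and 28.2% fell. The counts in each list below are to be read against those shares. Among the other ERBB receptors and ligands, 4 of 8 passed the filter, none rose and 2 fell. Those were BTC and NRG1 (-0.46, adjusted p = 1.72e-04), the latter encoding a neuregulin that ERBB3 binds.

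A list of 14 genes held sheddases, which release ligands from the cell surface, and their regulators, some of which restrain. Of these 14 genes, 8 rose and 1 fell, with a median of 0.36. ADAM17, the main protease for AREG, EREG, HBEGF and TGFA precursors, went from 56.6 and 60.7 CPM to 101 and 109 CPM (log2 fold change 0.84, adjusted p = 5.24e-07). ADAM10, which releases EGF and betacellulin, rose by 0.65 (adjusted p = 5.10e-06). RHBDF1, for iRhom1, which escorts ADAM17 to the cell surface, went from 22.2 and 20.9 CPM to 64.9 and 61.1 CPM (1.54, adjusted p = 3.58e-09), and CD82, for a tetraspanin that restrains EGFR signalling, rose by 1.77 from low levels (adjusted p = 2.22e-05). RHBDF2, a relative of RHBDF1 (-0.13, adjusted p = 0.278, edgeR), and FRMD8 (0.02, adjusted p = 0.871, edgeR) did not pass. The gene that fell was ADAM12 (-0.26, adjusted p = 0.0329, edgeR).

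In the list around MET, 9 of 12 genes passed the filter, 6 rose and 3 fell, and the median was 1.26. That median is the value of HPN, with 46 and 32 counts in shCon and 105 and 75 in shUBXN1. The members that rose included both activators of growth factor precursors and their inhibitors. PLAU, for urokinase, went from 28.4 and 29.0 CPM to 80.3 and 85.4 CPM (log2 fold change 1.53, adjusted p = 2.19e-09), and HPN, for the protease hepsin, rose by 1.26 (adjusted p = 0.00253). SPINT1, for an inhibitor of the proteases that activate HGF, went from 29.3 and 28.3 CPM to 95.2 and 101 CPM (1.76, adjusted p = 5.60e-10), and its relative SPINT2 rose by 1.70 (adjusted p = 3.39e-06). MST1, for the HGF-like ligand of the MET relative MST1R, was 2.10 higher (adjusted p = 6.31e-07) but has near-identical pseudogene copies, so its value is uncertain. MST1R itself was at -1.72, from 29 and 20 counts to 4 and 10 (adjusted p = 0.0182), but did not pass with DESeq2 (-1.73, adjusted p = 0.0868). Without the first control, the second control or the first knockdown library it did not pass either (-1.53, -1.89 and -1.18), and without the second knockdown library it was at -2.57.

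The list of other FGF receptors and ligands held no gene that rose. Of 11 genes, 7 passed the filter and 4 fell, with a median of -1.00. The 3 that did not pass, FGFR1, KLB and FGF1, had at most 32 counts in any library. That median is the value of KLB, with 22 and 20 counts in shCon and 9 and 11 in shUBXN1. FGFR3 went from 23.4 and 20.9 CPM to 10.5 and 8.07 CPM (log2 fold change -1.25, adjusted p = 2.97e-06), in the same direction as FGFR4. FGFBP1, a secreted carrier of FGFs, fell by 1.08 (adjusted p = 0.00101), and FGFRL1, a receptor without a kinase, fell by 0.74 (adjusted p = 2.64e-06). FGF19, an FGFR4 ligand made mainly in the gut, had at most 1 count in any library.

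AXL and its ligand rose together. GAS6 went from 15 and 14 counts in shCon to 122 and 88 in shUBXN1 (log2 fold change 2.90 ± 0.342 SE, adjusted p = 5.91e-06). Its level stayed low, at 3.76 to 4.93 CPM in the knockdown libraries. MERTK, a relative of AXL that also binds GAS6, rose by 0.36 (adjusted p = 0.00170). In that list, 4 of 6 genes passed the filter, 2 rose and none fell.

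Downstream of the receptors, genes moved in both directions. Of 23 adaptors and proximal signalling genes, 10 rose and 6 fell, with a median of 0.12. STAT3, a transcription factor that these receptors can activate, went from 103 and 97.9 CPM to 236 and 246 CPM (log2 fold change 1.26, adjusted p = 6.79e-09). SHC2, an adaptor best known from neurons, went from 25 and 24 counts to 342 and 320 (3.81, adjusted p = 2.49e-09). Of 21 genes listed for receptor inhibition and receptor turnover, 7 rose and 6 fell, with a median of 0.09. ERRFI1, for MIG6, which binds and inhibits EGFR, went from 299 and 298 CPM to 136 and 147 CPM (-1.08, adjusted p = 3.46e-08). LRIG3, for a membrane protein, also fell by 1.08 (adjusted p = 2.42e-07, edgeR). The ubiquitin ligase gene CBLC gave 6 and 12 counts in shCon and 39 and 24 in shUBXN1 (1.83, adjusted p = 0.00883, edgeR). CBLC did not pass without the first control (1.34, adjusted p = 0.114) or the first knockdown library (1.48, adjusted p = 0.0956), and was at 2.49 without the second control.

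Of 17 genes that ERK signalling is known to induce, 16 passed the filter, 2 rose and 9 fell, with a median of -0.20. EGR1, an immediate early transcription factor, went from 37.3 and 48.7 CPM to 4.97 and 6.54 CPM (log2 fold change -2.90, adjusted p = 2.49e-09). PHLDA1 fell by 0.75 (adjusted p = 1.37e-06), and the feedback inhibitors SPRY1, SPRY2 and SPRY4 fell by 0.92, 0.60 and 0.39 (adjusted p = 4.63e-05, 0.00266 and 0.00528). The 2 that rose were ETV5 (0.51, adjusted p = 6.45e-05, edgeR) and IER3 (0.35, adjusted p = 0.00135, edgeR). FOSL1 (-0.04, adjusted p = 0.734, edgeR) was among those that did not pass. DUSP6, a phosphatase widely used as a readout of ERK, gave 129 and 134 CPM in shCon and 127 and 131 CPM in shUBXN1 (-0.03, adjusted p = 0.739). Exons of IER3-AS1, on the opposite strand, cover 32.6% of the exon bases of IER3. Opposite-strand exons also cover 28.6% of the exon bases of DUSP6, 31.0% of those of PLAU and 12.2% of those of SPINT2. For ADAM17 and HPN the share was 10.3%. Reads of these genes and of their antisense partners may thus not have been told apart.

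**Figure D3:**
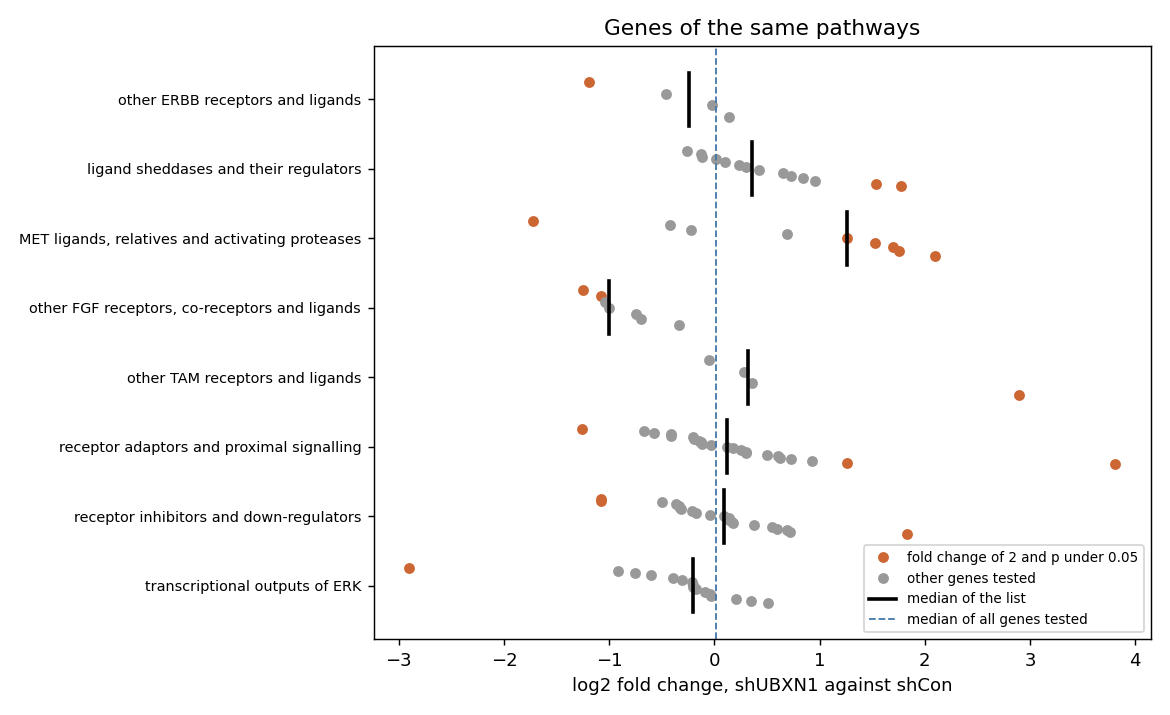
Log2 fold change (x axis) of each gene tested in the 8 pathway lists (rows), with the median of a list as a black line and that of all genes tested (0.02) as a dashed line. Orange points changed at least 2-fold with an unadjusted p under 0.05. The list around MET has its median at 1.26, the value of HPN, and that of other FGF receptors and ligands at -1.00. The latter is the value of KLB, a gene with few counts that did not pass.

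Other genes beside or farther from the members on their chromosomes were also read. Next to ERBB3, which fell by 0.63, PA2G4 (-0.97, adjusted p = 1.76e-07) and RPS26 (-0.42, adjusted p = 2.91e-04) fell as well by edgeR. PA2G4 begins 1032 bases beyond ERBB3. IKZF4 (0.10) and RPL41 (-0.20), the remaining neighbours read there, did not pass. MTHFD2L, a mitochondrial folate enzyme gene before EREG, was at -0.42 (adjusted p = 0.0556). Around MET, the log2 fold changes ran from -0.96 for TES (adjusted p = 4.32e-07), for a focal adhesion protein, to 0.22 for CAV2 (adjusted p = 0.0579), for a caveolin, which passed in 11 of 16 alternative settings.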

How the data were processed

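RNA was extracted with TRIzol and libraries were made with an mRNA kit. Per the methods of the study, reads were aligned to GRCh38 with Hisat2, levels were calculated as TPM, and differential expression was estimated with limma. The submitters' processing notes list HISAT2 2.0.4, StringTie 1.3.0 and GRCh37. The IDs and lengths of the table fit GRCh38: 61369 of 61541 gene IDs (99.7%) matched its GENCODE annotation, 59477 had the length of an annotated transcript, and the GRCh37 copy of AREG was not listed. The authors deposited expected counts per gene, not normalized, with a gene length; the counting tool and its use of strand were not given in the sources used here.

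Expected counts were rounded, filtered with filterByExpr, scaled with TMM and tested in edgeR 4.0.16 by quasi-likelihood (glmQLFit, then glmQLFTest) (R 4.3.3) without a block over all 4 libraries, with Benjamini-Hochberg adjustment over the 16863 genes tested. The code was tested on simulated data. The biological coefficient of variation was 0.0711, and 2 libraries a group limit how well it is known. Replicates differed beyond sampling noise (chi-square over degrees of freedom of 3.78 for shCon, 8.37 for shUBXN1). TPM was computed from the deposited counts and lengths, and the length of all annotated exons was tried after the data were seen. Alternatives used DESeq2 1.42.0 and limma 3.58.1.

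The members and lists were chosen with earlier results of these data known. Genes named are the 10 members, UBXN1, and in each list up to 3 genes with the largest change among those with a 2-fold change, an adjusted p under 0.05 and a mean log2 CPM above 0. The neighbours, markers and all other list genes named (among them ADAM17, ADAM10, NRG1, PLAU, HPN, HGF, MST1R, FGFRL1, MERTK, CBLC, PHLDA1, DUSP6 and the SPRY genes) were picked with their values in view.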

Additional observations from a re-analysis of the deposited data

How the results depend on the processing

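Each log2 fold change was recomputed under 16 alternatives. ERBB2 (1.76 to 2.01), AXL (1.48 to 1.64), FGFR4 (-1.66 to -1.28), EREG (-2.14 to -1.91) and ERBB3 (-0.70 to -0.54) kept their direction and stayed under an adjusted p of 0.05 in all 16, and HBEGF (0.11 to 0.46) stayed above it in all 16. With library totals alone, which moved the median of all genes from 0.016 to 0.101, EGFR passed (0.20, adjusted p = 0.0324), AREG (0.03), MET (0.02) and DUSP6 (0.05) turned positive without passing, and TGFA no longer passed (-0.40). TGFA also failed with DESeq2 (-0.49) and with limma on log2(TPM + 1) (-0.39), where DUSP6 was at 0.03, so 3 and not 4 of the 10 genes fell under each of these. AREG was at 0.01 after removal of the GC trend. Leaving out 1 library gave -0.28 to 0.13 for AREG (0.05 without the second control, 0.13 without the first knockdown library), -0.69 to -0.27 for TGFA (not passing without the first control) and -0.29 to 0.03 for CAPZA2, beside MET. The causes were not tested. With library totals alone no list turned in the sign of its median, but the ERK outputs that fell numbered 6 in place of 9. Genes called higher and lower at a 2-fold change, 1997 and 1027 in the main test, numbered 1028 and 524 with limma on log2(TPM + 1), 1006 and 634 with limma on log2(CPM + 1), and 3201 and 2435 at a fold change of 1.5, and 1321 were higher among genes with at least 10 counts in every library. Same-numbered libraries deviated from their group means with a correlation of 0.0777, so the numbers were not taken as pairs. With the replicate number as a block 2011 genes were higher and 1026 lower, TGFA was at -0.48 (adjusted p = 0.00960), and no call of the 10 genes changed. SPRY4 lost its call in 2 of 16, and the marker HNF4A in 1 (-0.27 without the second control). On the scales with 1 added before the logarithm, changes of genes with few counts came out smaller, as for GAS6 (1.65 with TPM, 1.75 with CPM). HBEGF had too few counts for a narrow interval.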

Other observations

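MET lay in a stretch of chromosome 7 in which several genes were expressed at very high levels in both groups. CAV2 and CAV1, for the caveolins, start 385 and 147 kb before MET, and their mean TPM in shCon was 2633 and 4198, beside 3249 for MET. These values placed CAV1 at rank 21, MET at rank 29 and CAV2 at rank 32 by TPM among the genes tested, by mean over the 4 libraries. TES, which starts 462 kb before MET, stood at 630 TPM. On the other side the levels were lower, with 139 TPM for CAPZA2, which starts 139 kb after the start of MET, and 13.0 TPM for ST7, 281 kb after it. After knockdown CAV2 stood at 3200 TPM, CAV1 at 3843 TPM and MET at 3245 TPM. Within this stretch TES (log2 fold change -0.96, adjusted p = 4.32e-07) and ST7 (-0.45, adjusted p = 0.0103) fell by edgeR's quasi-likelihood test, while CAV2 (0.22, adjusted p = 0.0579), CAV1 (-0.18, adjusted p = 0.142), MET and CAPZA2 (-0.11, adjusted p = 0.332) did not pass. That depended on the processing for the caveolins, since CAV2 passed in 11 of 16 alternatives, with DESeq2 among them (0.22, adjusted p = 8.81e-04), and CAV1 in 3 of 16, also with DESeq2 (-0.18, adjusted p = 0.0251). ST7 no longer passed in 2 of 16, and CAPZA2 passed in 1 (-0.29 without the first knockdown library). These neighbours were chosen after their values were seen, and the number of copies of the region was not measured here.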
